A study of Homo sapiens with 6 samples.

Results

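The late phase of a TGF-beta response in HepG2 cells was followed from 1.5 h to 24 h after addition of the cytokine. The comparison uses 4 of the 6 arrays of the series: the 24 h and 1.5 h arrays of cells transfected with a control siRNA (siControl) and the 24 h and 1.5 h arrays of cells transfected with an siRNA against HNF4a (siHNF4a). The arrays were chosen by their labels alone, and each 24 h array was set against the 1.5 h array of the same siRNA, which gives 2 late differences per gene. The 0 h arrays enter neither late difference. They are quoted as the level before TGF-beta, and they enter the fit of all 6 arrays and the fits that leave out 1 of the 4. Each gene was represented by the probe set with a single gene symbol and the highest mean signal over the 6 arrays, which left 19775 genes.

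TGF-beta signals through paired type I and type II receptor kinases that phosphorylate SMAD2 and SMAD3, which enter the nucleus with SMAD4 and act on target genes together with other factors. The first targets include the inhibitor SMAD7 and several other feedback genes, whose transcripts can be short-lived. In epithelial cells a longer exposure is known for arrest of the cell cycle in G1, through inhibitors such as the product of CDKN2B, and for induction of matrix, adhesion and cytoskeletal genes as part of an epithelial-mesenchymal transition. HNF4a is a nuclear receptor that drives many hepatocyte genes.

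HepG2 is a human hepatoblastoma line. Cells of all 6 cultures were transfected with an siRNA, and those of the 4 arrays compared here then received TGF-beta at 3 ng/ml for 1.5 or 24 h. There was 1 array per combination of siRNA and time. The labels do not say whether cultures of 1 siRNA came from the same transfection, so the 2 siRNAs serve as the only repeats of the time difference, and they are different treatments. No culture was kept for 24 h without TGF-beta, so TGF-beta and the hours in culture after transfection cannot be told apart. The level of HNF4A itself is not reported here.

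The values are MAS5 signals of the deposited table, with array medians of 12.4 to 13.3 and highest signals of 11521.9 to 13115.7 on the 4 arrays. The 3' to 5' signal ratio of GAPDH was 0.946 to 0.977 on these arrays, and that of ACTB was 1.17 to 1.26. The 5' probe set of the ribosomal RNA control read 69.8 to 736.5 on these arrays and 8599.7 on the siControl 0 h array, which enters neither late difference but is part of the fits of 5 or 6 arrays. All 11 hepatocyte and HepG2 markers were well above the floor on every array, with ALB at 8178 and 9203 at 1.5 h and 8323 and 9727 at 24 h, siControl first. Of 17 markers of blood, endothelial and stromal cells, 4 were above the floor on all 4 arrays and 5 on none, PTPRC, CDH5, KDR, VWF and TEK. The summed signal of these 17 markers was 660.1 and 481.1 at 1.5 h and 783.2 and 605.5 at 24 h, against 62325.2 to 65111.8 for the 11 hepatic markers. In RNA from a whole culture, fewer cells carrying a transcript and less of it in each cell cannot be told apart.

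Signals were floored at 12.9, the median of all signals, and a late difference is the log2 signal at 24 h minus that at 1.5 h, where 1 is a 2-fold difference. Errors are standard errors of the mean of the 2 differences from limma, and pairs of signals give siControl first and siHNF4a second. Of 11921 genes tested, 902 rose (7.57%) and 917 fell (7.69%) at a Benjamini-Hochberg adjusted p under 0.05 in limma, with 1 residual degree of freedom. Of these 1819 genes, 1810 had the same sign in both arms, where an arm is the pair of arrays of 1 siRNA. Differences of at least 2-fold in both arms were seen for 189 genes upward (1.59%) and 121 downward (1.02%). The median over all genes tested was -0.01. At an unadjusted p under 0.05 in limma, 3131 of the 11921 genes passed, in either direction. Counts of gene groups below, called or at an unadjusted p, stand beside these shares over all genes. A called gene with a signal under the floor is marked as floored, since the size of its difference depends on the floor.

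The counts rest on this small design. Without limma's trend of variance over signal they were 115 and 80, and without the term for siRNA 18 and 8. The standard errors, 0.10 to 0.42, come from that trend and not from a gene's own repeats, since limma estimated an infinite prior for the variance. A fit of all 6 arrays called 763 genes up and 836 down, among them 761 and 825 of those above. Without the siControl 0 h array its late differences and residuals are those of the 4 arrays. Fits that leave out 1 of the 4 arrays keep the other 5 of the series, so their siRNA term rests in part on the 0 h arrays, and without the siControl 0 h array they have no residual left. In these fits the calls fell to 501 up and 477 down without the siControl 1.5 h array, 314 and 322 without the siControl 24 h array, 479 and 480 without the siHNF4a 1.5 h array, and 134 and 118 without the siHNF4a 24 h array. Of the 1819 calls, 197 held whichever array was left out. Counts of this kind are given for many of the gene groups below in that order of arrays, and the remaining groups are given without them. Each p-value sets a gene's mean difference against the spread of genes of like signal between these arrays. The gap between that gene's own 2 arms does not enter it.

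**Figure D1:**
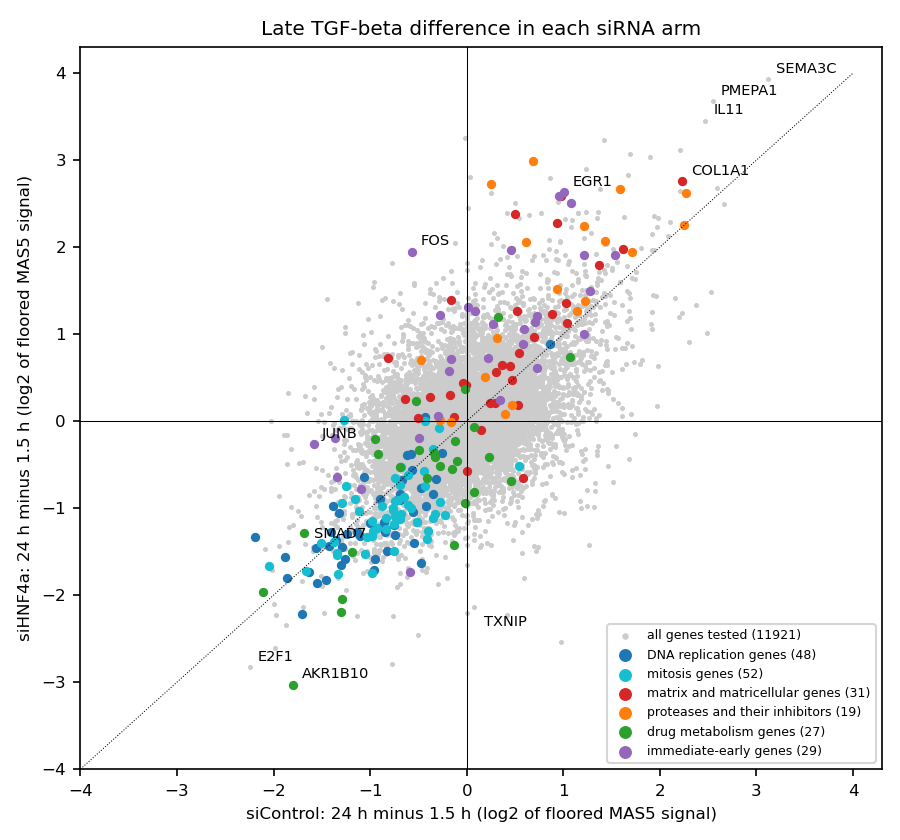
Late difference (24 h minus 1.5 h, log2) of each of the 11921 genes tested in siControl on the horizontal axis and siHNF4a on the vertical axis, 1 point per gene, with 6 gene groups coloured and the dotted line marking equal differences. DNA replication and mitosis genes sit in the lower left and protease genes mostly in the upper right, while TXNIP lies near 0 in siControl and at -2.14 in siHNF4a.

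Across all genes tested the late differences of the 2 arms, which share no array, had a Pearson correlation of 0.52 and a Spearman correlation of 0.46, taken across genes, which are not independent repeats. The spread was wider in siHNF4a, where 579 genes were at least 2-fold higher and 420 at least 2-fold lower, than in siControl, where the counts were 415 and 359.

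Among genes of the TGF-beta pathway, several ligands, extracellular regulators and receptors rose, while the receptor-regulated and common Smads did not pass the test, other than SMAD9, which fell. In all, 9 of 25 tested members of the list of ligands, receptors and Smads rose and 1 fell, with a median of 0.35. The shares over all genes tested were 7.57% and 7.69%. FSTL3, a secreted protein that binds activin and related ligands, had signals of 70.7 and 99.9 at 1.5 h and 267 and 443 at 24 h, and rose by 2.03 ± 0.22. LTBP2, of the family of latent TGF-beta binding proteins, had 38.4 and 34.7 at 1.5 h and 119 and 176 at 24 h, and rose by 1.99 ± 0.29. Both 24 h signals of each gene lay well above both 1.5 h signals.

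Among ligands, BMP4 rose by 1.11 ± 0.15, from 519 and 412 at 1.5 h to 977 and 1026 at 24 h, and GDF15, a divergent member of the family that responds to stress, rose by 0.92 ± 0.12. BMPR2, the type II receptor for BMP ligands, was 152 and 182 at 1.5 h and 329 and 501 at 24 h, and rose by 1.29 ± 0.20. TGFBR2, the type II receptor for TGF-beta itself, rose by 0.35 ± 0.12, and its type I partner TGFBR1 had a difference of 0.33 ± 0.17 that did not pass. SMAD2, SMAD3 and SMAD4, which carry the TGF-beta signal, had 0.29 ± 0.16, 0.38 ± 0.25 and 0.23 ± 0.18, and none of them passed. SMAD9, which transduces BMP signals, was the list member that fell, by 0.66 ± 0.18, with -0.08 in siControl and -1.23 in siHNF4a. Of this list, 7, 6, 6 and 2 genes rose with 1 array left out. FSTL3 and BMP4 were called whichever array was left out. LTBP2, GDF15 and BMPR2 lost the call without the siHNF4a 24 h array. TGFBR2 lost the call without the siControl 24 h, siHNF4a 1.5 h or siHNF4a 24 h array. SMAD9 lost the call without the siHNF4a 1.5 h or siHNF4a 24 h array.

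Feedback genes did not move as a block. Of 14 tested, 5 rose and 2 fell, with a median of 0.25, where 7.57% of all genes tested rose and 7.69% fell. SMAD7, the inhibitory Smad that recruits ubiquitin ligases to the receptor, had signals of 309 and 316 at 0 h, 710.3 and 693 at 1.5 h and 223 and 261 at 24 h, and fell by 1.54 ± 0.17. The 24 h signals of SMAD7 lay below the 0 h signals in both arms. KLF10, a zinc finger repressor first found as a TGF-beta inducible early gene, went through 476 and 572 at 0 h, 1128 and 1346 at 1.5 h and 437 and 588 at 24 h, and fell by 1.28 ± 0.15. PMEPA1, a membrane protein that holds Smads away from the receptor, showed the opposite course.

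PMEPA1 read 2.6 and 17 at 0 h, 7.8 and 21.9 at 1.5 h and 75.3 and 279.8 at 24 h. Its 1.5 h signal in siControl was under the floor, and it rose by 3.11 ± 0.32 (floored). SMURF2, a ubiquitin ligase of the receptor complex, rose by 1.06 ± 0.15, from 509.9 and 635 at 1.5 h to 1144 and 1232 at 24 h, while its relative SMURF1 had 0.45 ± 0.22 and did not pass. SKIL, TGIF1 and NEDD9 rose by 0.43 ± 0.15, 0.45 ± 0.15 and 0.54 ± 0.14. SKIL and TGIF1 encode nuclear co-repressors of Smads, and NEDD9 a scaffold of focal adhesions. BAMBI, a decoy receptor, had -0.29 ± 0.15, and SMAD6 had -0.11 ± 0.27. Of this list, 2, 2, 3 and 2 genes rose and 2, 2, 2 and 2 fell with 1 array left out. SMAD7, KLF10, PMEPA1 and SMURF2 were called whichever array was left out. SKIL and TGIF1 lost the call whichever of the 4 arrays was left out. NEDD9 lost the call without the siControl 1.5 h, siControl 24 h or siHNF4a 24 h array.

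Genes that an earlier analysis of these arrays had called for their difference between 1.5 h and 0 h are followed here into the late phase, with MIXL1 added to them. That difference and the late difference share the 1.5 h arrays, so the levels are set side by side and their relation was not tested. MIXL1, a homeobox gene of the early embryo that responds to Nodal signals, read 55 and 22.6 at 0 h, 129 and 43.9 at 1.5 h and 30.3 and 15.8 at 24 h, and fell by 1.78 ± 0.33. DLX2, another homeobox gene, read 122 and 70.7 at 0 h, 243 and 246 at 1.5 h and 95.6 and 112 at 24 h, and fell by 1.24 ± 0.23. For both genes the 24 h signals lay below both 1.5 h signals.

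JUNB, which pairs with FOS proteins in AP-1, read 35.5 and 59.8 at 0 h, 347 and 355 at 1.5 h and 116 and 296 at 24 h, and fell by 0.92 ± 0.20, with -1.58 in siControl and -0.26 in siHNF4a. GADD45B, a stress gene that activates p38 kinase signalling, read 59.3 and 85.8 at 0 h, 256 and 351.1 at 1.5 h and 101 and 225 at 24 h, and fell by 0.99 ± 0.21. RND1 fell by 0.94 ± 0.27, from 104 and 143 at 1.5 h to 48.8 and 83.2 at 24 h. At 24 h the signals of JUNB, GADD45B and RND1 were all above their 0 h signals. DDIT4, an inhibitor of mTORC1, read 179.8 and 362 at 0 h, 1003 and 1109.8 at 1.5 h and 656 and 1199.6 at 24 h, and its difference of -0.25 ± 0.14 did not pass.

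Among the other early genes, EDN1 and BHLHE40 were higher at each later time in both arms. EDN1, the vasoconstrictor peptide endothelin, read 85.9 and 69.1 at 0 h, 246 and 229 at 1.5 h and 642 and 568 at 24 h, and rose by 1.35 ± 0.18. BHLHE40, a helix-loop-helix repressor, read 214 and 209 at 0 h, 524 and 833 at 1.5 h and 763 and 1444 at 24 h, and rose by 0.67 ± 0.15. MYC, the growth-promoting transcription factor that TGF-beta is known to repress in epithelial cells, had been lower at 1.5 h than at 0 h and rose by 0.97 ± 0.14, with 1773 and 2140.1 at 0 h, 857 and 1206 at 1.5 h and 1422 and 2797 at 24 h. The 24 h signal of MYC was under the 0 h signal in siControl and over it in siHNF4a. TMEM184C, also lower at 1.5 h than at 0 h, had 0.55 ± 0.22 and did not pass.

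MIXL1 and EDN1 were called whichever array was left out. DLX2 lost the call without the siControl 24 h or siHNF4a 1.5 h array. JUNB lost the call without the siControl 1.5 h, siControl 24 h or siHNF4a 24 h array. GADD45B lost the call without the siControl 1.5 h or siControl 24 h array. RND1 and BHLHE40 lost the call whichever of the 4 arrays was left out. MYC lost the call without the siHNF4a 24 h array.

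**Figure D2:**
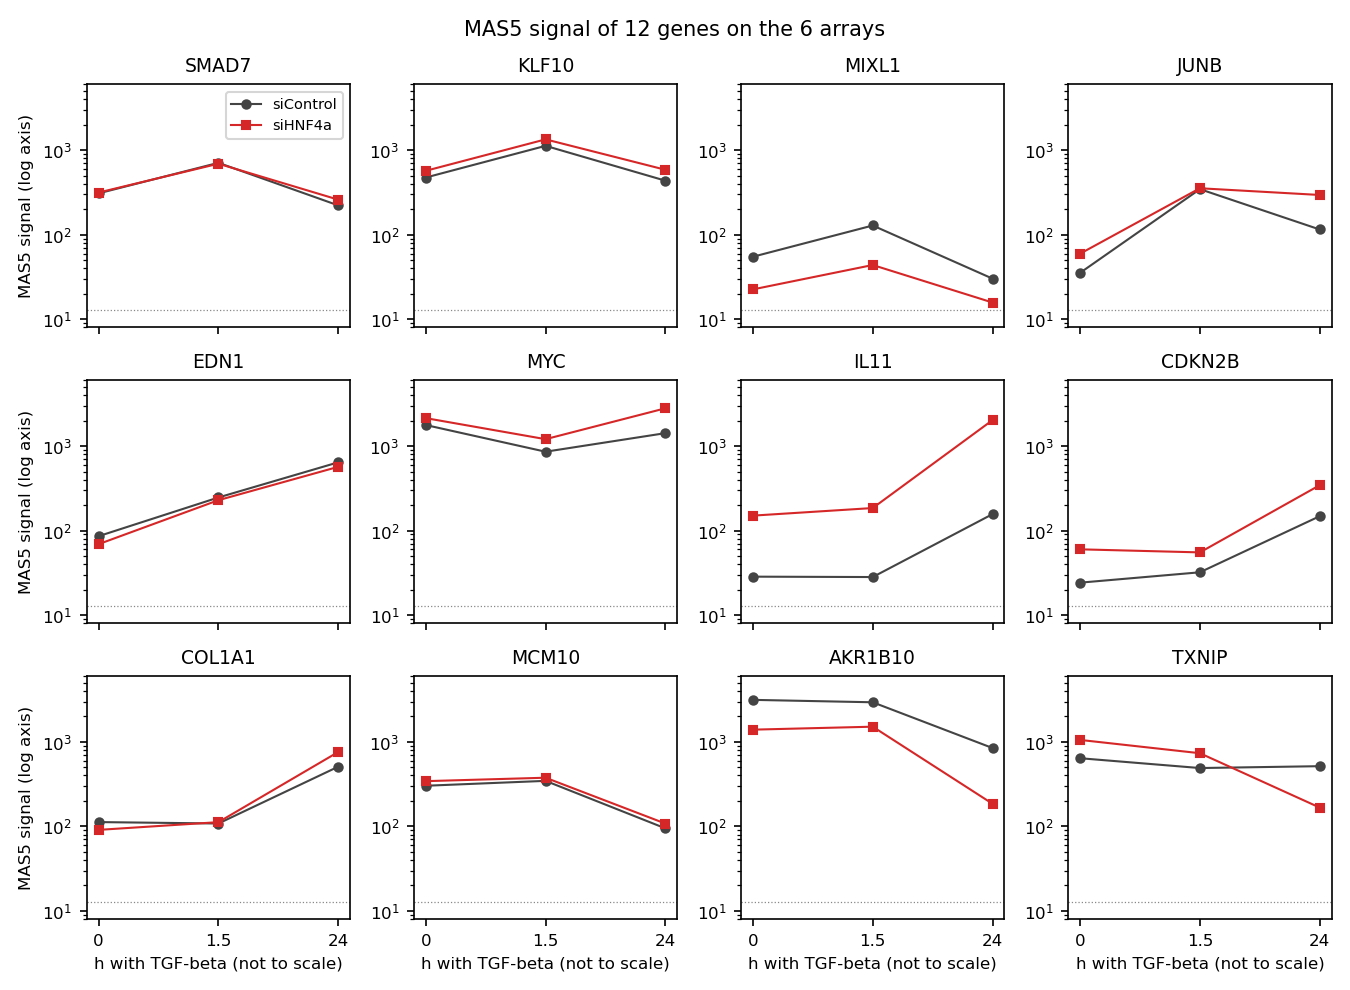
MAS5 signal (log axis) of 12 genes at 0, 1.5 and 24 h, with siControl as grey circles and siHNF4a as red squares, 1 array per point, and the dotted line at the floor of 12.9. SMAD7, KLF10 and MIXL1 peak at 1.5 h, EDN1 climbs through both steps, IL11, CDKN2B and COL1A1 climb mainly after 1.5 h, and MCM10 and AKR1B10 drop after 1.5 h in both arms, while TXNIP drops after 1.5 h in siHNF4a.

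The ID and HES repressors are helix-loop-helix proteins, several of which hold back differentiation. Of 9 tested, 6 fell and 1, BHLHE40, rose. The median was -0.65. ID4 fell by 1.15 ± 0.28, from 105 and 135 at 1.5 h to 68.5 and 41.8 at 24 h, and ID3 fell by 0.68 ± 0.14, from 1433 and 1837 at 1.5 h to 1088 and 945 at 24 h. ID1, among the brightest of them, fell by 0.31 ± 0.11, from 7703 and 9462 at 1.5 h to 6496 and 7324 at 24 h. HES1, a Notch target, read 123 and 144 at 0 h, 335 and 307 at 1.5 h and 161 and 259 at 24 h, and fell by 0.65 ± 0.20, and HES6 fell by 1.11 ± 0.24. 3, 3, 2 and 0 genes fell with 1 array left out. ID4 and ID3 lost the call without the siHNF4a 1.5 h or siHNF4a 24 h array. ID1 lost the call whichever of the 4 arrays was left out. HES1 lost the call without the siControl 1.5 h, siControl 24 h or siHNF4a 24 h array. HES6 lost the call without the siHNF4a 24 h array.

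Immediate-early genes, which respond to growth factors and kinase signals within minutes, rose in larger number: 17 of 29 rose and 5 fell, with a median of 0.68. The median was 0.27 in siControl and 1.06 in siHNF4a. EGR1, a zinc finger activator, had signals of 371 and 449.5 at 1.5 h and 747 and 2789 at 24 h, and rose by 1.82 ± 0.15, with 1.01 in siControl and 2.63 in siHNF4a. Its relative EGR3 was dimmer, at 18.5 and 19.1 at 1.5 h and 35.8 and 115 at 24 h, and rose by 1.77 ± 0.34.

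DUSP6 and DUSP5, phosphatases that turn off ERK, rose by 1.72 ± 0.15 and 1.79 ± 0.24. DUSP6 read 471 and 441 at 1.5 h and 1362 and 1649 at 24 h, so both 24 h signals were clear of the 1.5 h signals. FOS, another AP-1 subunit, was near the floor at 20 and 21.7 at 1.5 h and 13.5 and 83.8 at 24 h and did not pass, with -0.57 in siControl and 1.95 in siHNF4a. The genes that fell were JUNB, GADD45B and RND1, given above, with SOCS3 and ZFP36. SOCS3, an inhibitor of cytokine receptors, fell by 1.16 ± 0.35, and ZFP36, which destabilises transcripts of cytokines, fell by 0.78 ± 0.22. 13, 13, 9 and 4 genes rose and 0, 1, 2 and 2 fell with 1 array left out. EGR1 and DUSP6 were called whichever array was left out. EGR3 lost the call without the siHNF4a 1.5 h or siHNF4a 24 h array. DUSP5 lost the call without the siHNF4a 24 h array. SOCS3 lost the call without the siControl 1.5 h, siHNF4a 1.5 h or siHNF4a 24 h array. ZFP36 lost the call without the siControl 1.5 h, siControl 24 h or siHNF4a 1.5 h array.

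Extracellular matrix genes rose or did not pass: 15 of 31 rose and 0 fell in limma. The list had 0 lower at an unadjusted p under 0.05 and 0 called lower in the 6-array fit, and its lowest difference was -0.28 for COL5A2. The median was 0.47. COL1A1, the main chain of type I collagen, read 112 and 90.9 at 0 h, 108 and 112 at 1.5 h and 508 and 758 at 24 h, and rose by 2.49 ± 0.20. Both 24 h signals were more than 4 times both 1.5 h signals. VCAN, the proteoglycan versican, read 331 and 316 at 1.5 h and 853 and 1100.4 at 24 h, and rose by 1.58 ± 0.16, and THBS1, thrombospondin, which can activate latent TGF-beta, rose by 1.08 ± 0.14.

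LOXL4, a lysyl oxidase that crosslinks collagen, read 232 and 164 at 1.5 h and 708 and 647 at 24 h, and rose by 1.80 ± 0.18. Its relatives LOXL2 and LOX rose by 1.78 ± 0.26 and 0.83 ± 0.20, and the lysyl hydroxylase PLOD2 by 1.19 ± 0.13. CCN1, a matricellular protein, rose by 1.61 ± 0.14, with 0.94 in siControl and 2.28 in siHNF4a. FN1 and CCN2, matrix genes often used as TGF-beta markers, were high before treatment and had differences of 0.25 ± 0.11 and 0.23 ± 0.12, which did not pass. FN1 read 7328 and 7663 at 0 h, 7265 and 8247 at 1.5 h and 8902 and 9526 at 24 h. These values are those of its brightest probe set. Its 6 other probe sets, not tested, were all higher at 24 h in the mean of both arms, by 0.08 to 1.10. The value of 1.10 came from a dim probe set, at 13.2 and 18.1 at 1.5 h. Another gave 0.78, from 139 and 161 at 1.5 h to 221 and 296 at 24 h. Of the 8 blood, endothelial and stromal markers that could be tested, PDGFRB rose by 1.29 ± 0.35 (floored) and the others did not pass. The part of such cells in the matrix results was not tested. 13, 8, 7 and 6 matrix genes rose with 1 array left out. COL1A1, VCAN, THBS1, LOXL4, PLOD2 and CCN1 were called whichever array was left out. PDGFRB and LOX lost the call without the siControl 24 h, siHNF4a 1.5 h or siHNF4a 24 h array. LOXL2 lost the call without the siHNF4a 24 h array.

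Proteases and their inhibitors had the highest median of the groups described, 1.30, against -0.01 over all genes tested. Here 13 of 19 rose and 0 fell, and 8 rose at least 2-fold in both arms. The list was written with earlier results of these data known, so its rank and counts are descriptive only. It had 0 lower at an unadjusted p under 0.05 and 0 called lower in the 6-array fit. Inhibitors and proteases both took part. TIMP1, the inhibitor of matrix metalloproteinases, read 878 and 799 at 0 h, 837 and 811 at 1.5 h and 2509 and 5155 at 24 h, and rose by 2.13 ± 0.13. SPINK1, a trypsin inhibitor, read 41.8 and 59.6 at 1.5 h and 199 and 284 at 24 h, and rose by 2.25 ± 0.26. KLK6, a serine protease of the kallikrein family, read 23.2 and 30.3 at 1.5 h and 112 and 187 at 24 h, and rose by 2.45 ± 0.30. In each of these 3 genes the 24 h signals lay above both 1.5 h signals.

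PLAU, the urokinase protease, rose by 1.33 ± 0.30, its receptor PLAUR rose by 1.23 ± 0.28, and PLAT, the tissue-type activator, rose by 1.20 ± 0.35. ADAM19, a membrane metalloprotease, read 50.4 and 58.4 at 1.5 h and 165 and 225 at 24 h, and rose by 1.83 ± 0.26. TFPI2, an inhibitor of serine proteases, was under the floor in both 1.5 h arrays and rose by 1.84 ± 0.37 (floored). MMP2, a gelatinase, rose by 1.49 ± 0.31, with 0.25 in siControl and 2.73 in siHNF4a. MMP3 and MMP9 had -0.13 ± 0.24 and 0.24 ± 0.36 and did not pass. 12, 12, 6 and 5 genes rose with 1 array left out. TIMP1, SPINK1, KLK6 and ADAM19 were called whichever array was left out. PLAU, PLAUR, TFPI2 and MMP2 lost the call without the siHNF4a 1.5 h or siHNF4a 24 h array. PLAT lost the call whichever of the 4 arrays was left out.

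Secreted vascular and growth signals gave 15 rises and 1 fall among 26 genes, with a median of 0.78. SEMA3C, a secreted semaphorin that guides migrating cells, read 11.3 and 18.8 at 0 h, 15.3 and 20.5 at 1.5 h and 133 and 312 at 24 h, and rose by 3.52 ± 0.30. No other gene above the floor on all 4 arrays and of 1 sign in both arms had a larger late rise. IGFBP7, an insulin-like growth factor binding protein, read 101 and 67.7 at 1.5 h and 448 and 181 at 24 h, and rose by 1.78 ± 0.23, and HBEGF, a ligand of the EGF receptor, rose by 1.31 ± 0.27. NRP2, a semaphorin co-receptor, rose by 1.58 ± 0.35 (floored), with its siHNF4a signal at 1.5 h under the floor. ERBB3, a receptor of the EGF receptor family, fell by 0.47 ± 0.15.

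Of 20 genes of chemokines, cytokines and NF-kB, 5 rose and 1 fell, with a median of 0.22. The shares over all genes tested were 7.57% and 7.69%. IL11, a cytokine of the IL6 family, read 28.5 and 150.3 at 0 h, 28.2 and 185 at 1.5 h and 157 and 2027 at 24 h, and rose by 2.96 ± 0.21. CXCL8, a neutrophil chemokine, read 66 and 171 at 0 h, 36.2 and 165 at 1.5 h and 168 and 1435 at 24 h, and rose by 2.66 ± 0.21. LIF and IL18 rose by 1.19 ± 0.30 and 1.23 ± 0.29. The IL11 signal of siControl at 24 h was under that of siHNF4a at 1.5 h, and for CXCL8 these 2 signals were nearly equal, while both genes were higher at 24 h within each arm. NFKBIA, the inhibitor of NF-kB, fell by 0.72 ± 0.14. 10, 10, 7 and 4 secreted signals and 3, 4, 5 and 3 cytokine genes rose with 1 array left out. SEMA3C, IGFBP7, IL11 and CXCL8 were called whichever array was left out. HBEGF lost the call without the siHNF4a 24 h array. NRP2 lost the call without the siHNF4a 1.5 h or siHNF4a 24 h array. ERBB3 lost the call whichever of the 4 arrays was left out. LIF lost the call without the siControl 1.5 h, siControl 24 h or siHNF4a 24 h array. IL18 lost the call without the siControl 1.5 h or siControl 24 h array. NFKBIA lost the call without the siControl 1.5 h or siHNF4a 24 h array.

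Actin and focal adhesion genes rose or did not pass. Of 35 tested, 19 rose and 0 fell, with a median of 0.65 and the lowest value at -0.23 for ITGB4. It had 0 lower at an unadjusted p under 0.05 and 0 called lower in the 6-array fit. TAGLN, an actin-binding protein of smooth muscle, read 214 and 228 at 0 h, 233 and 271 at 1.5 h and 896 and 1061 at 24 h, and rose by 1.95 ± 0.17, and its relative TAGLN2 rose by 1.50 ± 0.17. A probe set that can match several transcripts stands for TAGLN, and the probe set that replaces it when such probe sets are left out gave 0.73 and did not pass. The integrin subunits ITGA2 and ITGAV rose by 1.10 ± 0.14 and 0.93 ± 0.12, and ITGB1, a beta chain shared by many integrins, by 0.65 ± 0.12, from 2448 and 4714 at 1.5 h to 4406 and 6471 at 24 h. Tropomyosins TPM1 and TPM4 rose by 0.90 ± 0.13 and 0.97 ± 0.15. ACTB and ACTA2 had 0.09 ± 0.11 and -0.05 ± 0.18 and did not pass. 14, 9, 14 and 6 genes rose with 1 array left out. TAGLN, TAGLN2, ITGA2, ITGAV and TPM1 were called whichever array was left out. ITGB1 lost the call without the siControl 24 h array. TPM4 lost the call without the siHNF4a 24 h array.

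Of 23 junction genes 5 rose and 1 fell, where 7.57% of all genes tested rose and 7.69% fell, with a median of 0.12. CDH1, E-cadherin, whose loss marks a full epithelial-mesenchymal transition, read 197 and 132 at 0 h, 251 and 152 at 1.5 h and 653 and 522 at 24 h, and rose by 1.58 ± 0.18. A second CDH1 probe set, dimmer, gave 1.43. CDH2, N-cadherin, rose by 0.89 ± 0.15, from 617 and 629 at 1.5 h to 1334 and 995 at 24 h, and CLDN6, a tight junction claudin, rose by 1.34 ± 0.25. GJB1, the gap junction protein connexin of hepatocytes, fell by 0.72 ± 0.22.

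Of the transcription factors and mesenchymal markers of that transition, 10 of 18 were bright enough to test. Of these 4 rose and 0 fell in limma, with 0 lower at an unadjusted p under 0.05 and 0 called lower in the 6-array fit. SOX4, an activator that TGF-beta induces in many epithelia, read 761 and 1231 at 1.5 h and 1963 and 4039 at 24 h, and rose by 1.54 ± 0.13. S100A4 and ELK3 rose by 1.69 ± 0.20 and 1.36 ± 0.16, and ZEB1, a repressor of CDH1 in other cells, by 0.49 ± 0.18, with 0.07 in siControl and 0.91 in siHNF4a. SNAI1 and VIM were near the floor, with SNAI1 at 29.7 and 19 at 1.5 h and 2.5 and 25.1 at 24 h and VIM at 6 and 16.3 at 1.5 h and 14.6 and 25.8 at 24 h, and neither passed. Among keratins and progenitor markers, 6 of 18 rose and 0 fell in limma, with 0 lower at an unadjusted p under 0.05 and 0 called lower in the 6-array fit. PROM1, a membrane protein used as a progenitor marker, rose by 1.28 ± 0.23, KRT23 rose by 0.79 ± 0.13 and CD24 rose by 0.74 ± 0.12. SOX4 is counted in this list too. SOX9 and SPP1 had 0.26 ± 0.14 and 0.02 ± 0.11, and neither passed. KRT7, DLK1 and EPCAM had -0.07 ± 0.33, -0.12 ± 0.12 and -0.19 ± 0.13 and did not pass either. 4, 2, 3 and 2 junction genes, 3, 4, 3 and 3 transition genes and 6, 5, 5 and 3 keratin and progenitor genes rose with 1 array left out. CDH1, SOX4, S100A4, ELK3, PROM1 and CD24 were called whichever array was left out. CDH2 lost the call without the siControl 24 h array. CLDN6 lost the call without the siHNF4a 1.5 h or siHNF4a 24 h array. GJB1 lost the call whichever of the 4 arrays was left out. ZEB1 lost the call without the siControl 1.5 h, siHNF4a 1.5 h or siHNF4a 24 h array. KRT23 lost the call without the siHNF4a 24 h array.

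Genes of the cell cycle fell in large number. Among controllers of the cycle, 12 of 32 fell and 4 rose, with a median of -0.23. The genes that rose were 3 inhibitors and a cyclin. CDKN2B, the inhibitor of CDK4 and CDK6 long known as a TGF-beta target, read 24.2 and 60 at 0 h, 32.1 and 55.2 at 1.5 h and 148 and 344 at 24 h, and rose by 2.42 ± 0.26. CDKN1A and CDKN2A, which encode other kinase inhibitors, rose by 0.79 ± 0.15 and 0.83 ± 0.24, and CCND2, a D-type cyclin, by 0.95 ± 0.26. CCND1 had -0.05 ± 0.14 and CDKN1B 0.10 ± 0.14, and neither passed.

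Members of the E2F family differed from one another. E2F1, the transcription factor that drives replication genes, read 113 and 95.5 at 0 h, 98.8 and 91.6 at 1.5 h and 20.8 and 12.4 at 24 h, reached the floor in siHNF4a, and fell by 2.54 ± 0.34 (floored). E2F2 read 137 and 73.3 at 1.5 h and 34.4 and 17 at 24 h, and fell by 2.05 ± 0.32. SKP2, the ubiquitin ligase subunit that removes CDKN1B, read 669 and 679 at 1.5 h and 206 and 155 at 24 h, and fell by 1.92 ± 0.18. CCNE2, a cyclin E, fell by 1.33 ± 0.28, and the E2F family repressors E2F8 and E2F7 fell by 1.28 ± 0.30 and 0.92 ± 0.26. For E2F1, E2F2 and SKP2 every 24 h signal was below every 1.5 h signal. E2F3, E2F4, E2F5 and E2F6 had differences of 0.26 ± 0.21, -0.11 ± 0.19, 0.05 ± 0.23 and 0.32 ± 0.16, and none of these 4 passed. 3, 2, 1 and 1 controllers rose and 9, 9, 5 and 3 fell with 1 array left out. CDKN2B, E2F1, E2F2 and SKP2 were called whichever array was left out. CDKN1A and E2F8 lost the call without the siHNF4a 1.5 h or siHNF4a 24 h array. CDKN2A lost the call whichever of the 4 arrays was left out. CCND2 lost the call without the siControl 24 h, siHNF4a 1.5 h or siHNF4a 24 h array. CCNE2 lost the call without the siHNF4a 24 h array. E2F7 lost the call without the siControl 1.5 h, siControl 24 h or siHNF4a 24 h array.

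**Figure D3:**
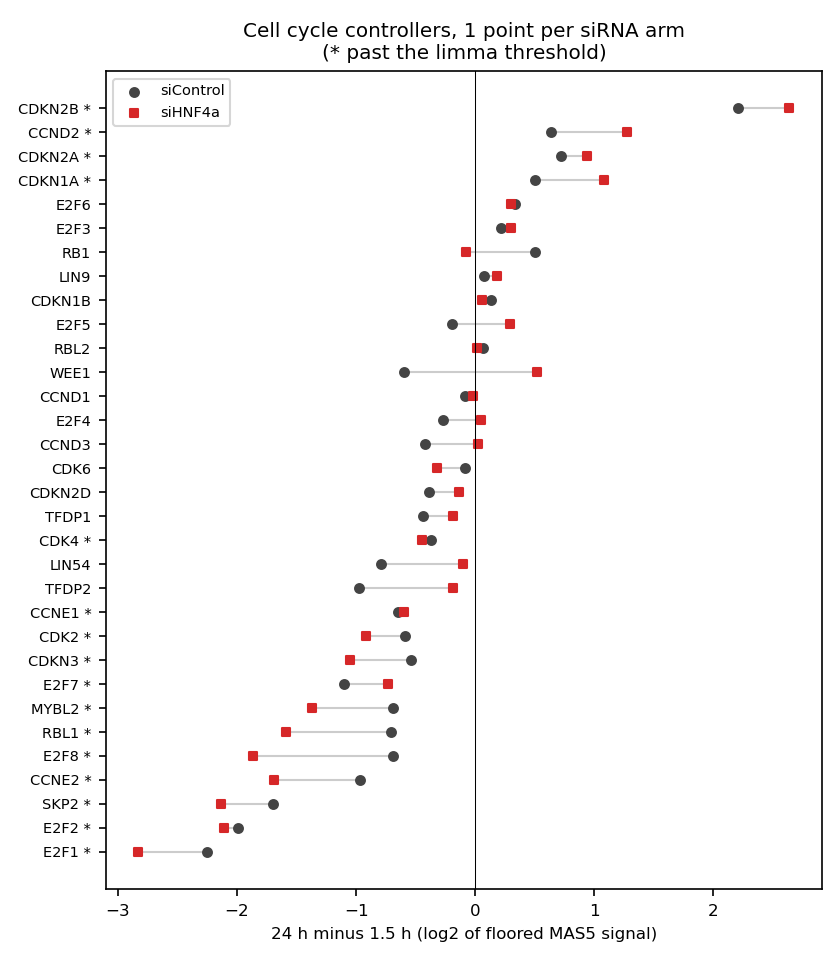
Late difference (24 h minus 1.5 h, log2) of 32 cell cycle controllers, ordered by their mean, with siControl as grey circles and siHNF4a as red squares, 1 pair of arrays per point, and an asterisk on genes past the limma threshold. CDKN2B stands apart at the top with 2.20 and 2.64, and E2F1, E2F2 and SKP2 at the bottom lie below -1.6 in both arms.

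DNA replication genes were lower at 24 h almost throughout: 44 of 48 fell and 1 rose, where 7.69% of all genes tested fell. The median was -1.06, with -0.88 in siControl and -1.24 in siHNF4a, and 19 genes were at least 2-fold lower in both arms. CDC6, which loads the replicative helicase, read 469.6 and 546 at 0 h, 463 and 529 at 1.5 h and 142 and 114 at 24 h, and fell by 1.96 ± 0.20. MCM10, which helps fire replication origins, read 302 and 343 at 0 h, 346 and 376 at 1.5 h and 94.8 and 108 at 24 h, and fell by 1.83 ± 0.22. At 0 and 1.5 h both genes were at like levels in the 2 arms, and both 24 h signals were far below.

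All 6 subunits of the helicase ring itself fell: MCM7 by 1.72 ± 0.17, MCM2 by 1.71 ± 0.16, MCM4 by 1.36 ± 0.18, MCM5 by 1.34 ± 0.19, MCM6 by 1.27 ± 0.16 and MCM3 by 1.04 ± 0.14. MCM2 read 1429 and 1030.2 at 1.5 h and 489 and 283 at 24 h. The 4 subunits of the GINS complex fell by 1.43 ± 0.18 for GINS2, 1.27 ± 0.15 for GINS1, 1.03 ± 0.26 for GINS3 and 0.97 ± 0.29 for GINS4. PCNA, the sliding clamp, was bright at 3631 and 3623 at 1.5 h and 2622 and 2119 at 24 h and fell by less, 0.62 ± 0.12. Enzymes of nucleotide supply fell too, RRM2 by 1.20 ± 0.13 and TYMS by 0.81 ± 0.12.

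RFC5, a subunit of the clamp loader, was the member that rose, by 0.88 ± 0.16. Its 2 other probe sets fell by 1.06 and 1.16, while RFC3 fell by 1.48 ± 0.17, RFC2 by 1.16 ± 0.23 and RFC4 by 1.06 ± 0.16. The probe sets of RFC5 thus disagree, and the rise belongs to the brightest of them. ORC6, RPA3 and PRIM2 had -0.48 ± 0.19, -0.31 ± 0.14 and -0.19 ± 0.26 and did not pass. 37, 32, 31 and 21 replication genes fell with 1 array left out. CDC6, MCM10, MCM7, MCM2, MCM4, MCM5, MCM6, MCM3, GINS2, GINS1, RRM2, TYMS, RFC3 and RFC4 were called whichever array was left out. GINS3 lost the call without the siControl 24 h, siHNF4a 1.5 h or siHNF4a 24 h array. GINS4 lost the call without the siHNF4a 1.5 h or siHNF4a 24 h array. PCNA, RFC5 and RFC2 lost the call without the siHNF4a 24 h array.

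Mitosis genes gave 46 falls and 0 rises among 52, with a median of -0.89. The list had 0 higher at an unadjusted p under 0.05 and 0 called higher in the 6-array fit, and the highest difference was 0.01 for ECT2. CDC25A, the phosphatase that activates CDK2 at the start of S phase, read 202 and 151 at 1.5 h and 48.9 and 47.5 at 24 h, and fell by 1.85 ± 0.27. CDCA8, a subunit of the chromosomal passenger complex, read 442 and 299.7 at 1.5 h and 139 and 90.5 at 24 h, and fell by 1.70 ± 0.21. PLK1, a mitotic kinase, fell by 1.46 ± 0.18, and SPC25, of the kinetochore, fell by 1.54 ± 0.22. MKI67, the proliferation marker, read 414 and 256 at 1.5 h and 163 and 88.2 at 24 h and fell by 1.44 ± 0.21. CDK1 fell by 1.07 ± 0.14, with -1.11 in siControl and -1.04 in siHNF4a, and its partners CCNA2 and CCNB1 by 1.43 ± 0.16 and 0.78 ± 0.14. TOP2A was among the smaller falls, 0.51 ± 0.14, by its brightest probe set. A second TOP2A probe set gave -0.93, from 1353 and 1079 at 1.5 h to 746 and 539 at 24 h. 41, 38, 30 and 17 mitosis genes fell with 1 array left out. CDC25A, CDCA8, PLK1, SPC25, MKI67, CDK1 and CCNA2 were called whichever array was left out. CCNB1 lost the call without the siHNF4a 24 h array. TOP2A lost the call without the siControl 24 h, siHNF4a 1.5 h or siHNF4a 24 h array.

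DNA repair genes fell in 16 of 26 cases and rose in 0, with a median of -0.63. It had 0 higher at an unadjusted p under 0.05 and 0 called higher in the 6-array fit. EXO1, an exonuclease of mismatch repair and recombination, read 124 and 142 at 1.5 h and 44.6 and 30.7 at 24 h, and fell by 1.84 ± 0.29, and RAD54L, a recombination motor, fell by 1.54 ± 0.31. The highest difference, for XRCC2, was 0.20 ± 0.35. Of 22 genes of p53 and apoptosis, 6 rose and 2 fell, where 7.57% of all genes tested rose and 7.69% fell. The falls were near that share. PMAIP1, a pro-apoptotic BH3-only protein, read 68.4 and 95.1 at 1.5 h and 216 and 268 at 24 h, and rose by 1.58 ± 0.24, while BCL2L11, of the same class, fell by 0.69 ± 0.21 and MDM2, the p53 ligase, fell by 0.44 ± 0.17. The list of replication-dependent histone genes gave 2 rises and 1 fall among 11. Transcripts of such genes lack the usual poly(A) tail that oligo-dT labelling relies on. The list also holds H2AZ1, a variant outside this class, which had -0.21 ± 0.12 and did not pass. Of all genes tested 7.57% rose and 7.69% fell, and a list this short rests on few genes. H2AX, which also has polyadenylated transcripts, fell by 1.16 ± 0.16. 12, 8, 9 and 3 repair genes fell and 6, 5, 4 and 1 genes of p53 and apoptosis rose with 1 array left out. EXO1 and PMAIP1 were called whichever array was left out. RAD54L and H2AX lost the call without the siHNF4a 24 h array. BCL2L11 lost the call without the siControl 1.5 h, siControl 24 h or siHNF4a 24 h array. MDM2 lost the call whichever of the 4 arrays was left out.

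The promoters of the cell cycle genes were searched because these genes moved together and are known targets of E2F factors and of the DREAM and MuvB complexes. RefSeq promoter sequences of GRCh38.p14 covered 42 of the 48 replication genes, 43 of the 52 mitosis genes and 25 of the 32 controllers. In the 250 bases before the start, an E2F-type word (TTTCCCGC, TTTGGCGC, TTTCGCGC or TTTGCCGC, on either strand, a promoter counted once) was present in 13 of 42 replication promoters (31.0%), 3 of 43 mitosis promoters (6.98%) and 5 of 25 controller promoters (20%). The share was 2.79% of all 27305 promoters and 4.31% of the 9736 promoters of genes tested. The cell cycle homology region, CHR, searched as TTTGAA on either strand, was present in 22 of 43 mitosis promoters (51.2%), 1 of 42 replication promoters (2.38%) and 3 of 25 controller promoters (12%), against 13.6% of all promoters and 8.60% of those of genes tested. A match is a run of letters and says nothing of occupancy, and a promoter without one may hold other sites.

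Windows of the last 100 bases before the start are shown for 4 genes with an E2F-type word and 4 with a CHR, each 5′ to 3′ on the gene's strand. They were chosen for a match within these 100 bases and, among such called genes, for the lowest late differences. E2F-type words were taken from the replication and controller lists and CHR words from the mitosis list. Genes of 1 chromosome were left out. E2F1 lies at chr20:33686386-33686485 (minus strand), E2F2 at chr1:23531234-23531333 (minus), MCM7 at chr7:100101398-100101497 (minus) and RFC3 at chr13:33818049-33818148 (plus). CDCA8 lies at chr1:37692416-37692515 (plus), PLK1 at chr16:23678789-23678888 (plus), MKI67 at chr10:128126424-128126523 (minus) and KIF11, a mitotic motor that fell by 1.36 ± 0.20, at chr10:92593030-92593129 (plus). Capitals mark the matched letters.
E2F1: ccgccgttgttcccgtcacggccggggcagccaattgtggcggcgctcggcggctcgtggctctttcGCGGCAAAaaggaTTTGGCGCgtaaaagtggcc
E2F2: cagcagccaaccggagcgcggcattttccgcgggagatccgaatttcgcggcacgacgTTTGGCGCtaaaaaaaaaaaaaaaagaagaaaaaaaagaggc
MCM7: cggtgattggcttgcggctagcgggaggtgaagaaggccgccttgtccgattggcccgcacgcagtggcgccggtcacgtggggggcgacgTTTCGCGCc
RFC3: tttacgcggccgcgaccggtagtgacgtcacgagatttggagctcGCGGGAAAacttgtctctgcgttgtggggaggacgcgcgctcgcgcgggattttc
CDCA8: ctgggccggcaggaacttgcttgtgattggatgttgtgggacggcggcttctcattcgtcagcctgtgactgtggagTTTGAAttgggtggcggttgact
PLK1: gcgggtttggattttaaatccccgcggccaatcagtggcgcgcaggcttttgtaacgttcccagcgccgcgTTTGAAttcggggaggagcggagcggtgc
MKI67: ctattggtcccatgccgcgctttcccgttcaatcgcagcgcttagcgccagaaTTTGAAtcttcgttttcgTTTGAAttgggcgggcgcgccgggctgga
KIF11: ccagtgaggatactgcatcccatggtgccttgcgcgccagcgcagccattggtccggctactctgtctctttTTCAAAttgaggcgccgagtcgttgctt

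In the E2F1 and MKI67 windows 2 separate matches of 1 kind are marked. KIF11, RFC3 and the first of the 2 matches of E2F1 hold their word on the opposite strand, so the capitals give its reverse complement. The late falls of all 8 genes are given above.

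**Figure D4:**
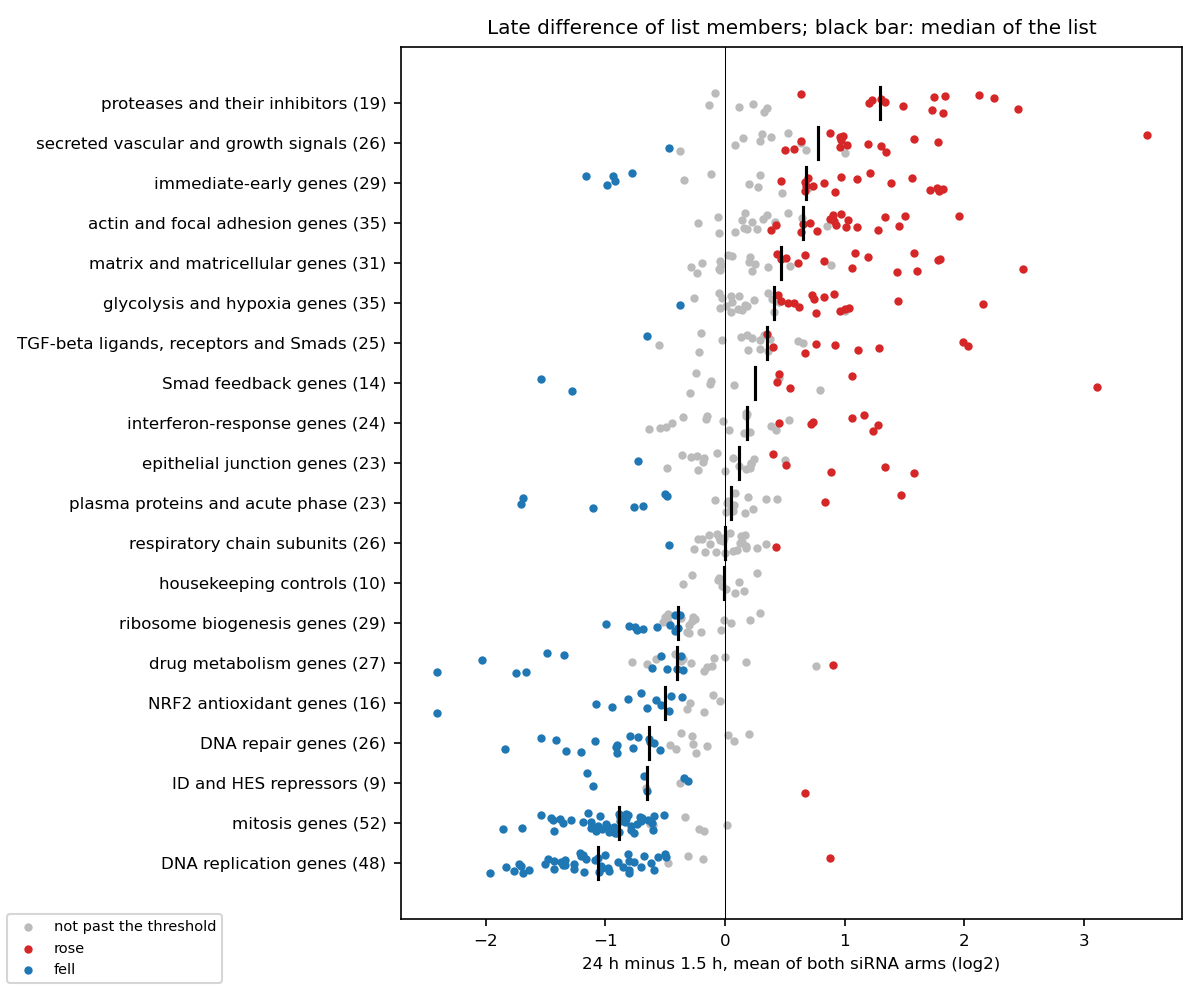
Late difference (24 h minus 1.5 h, log2, mean of both siRNA arms) of every tested member of 20 gene groups, 1 point per gene, in red where it rose, in blue where it fell and in grey where it did not pass, with the group median as a black bar and the number of tested members in brackets. Medians run from 1.30 for proteases and their inhibitors to -1.06 for DNA replication genes. The 10 housekeeping controls lie around 0 with none past the threshold. The groups were written with earlier results of these data known, so their order is descriptive only.

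Ribosome biogenesis genes supply growing cells with ribosomes. Of 29 tested, 11 fell and 0 rose, with a median of -0.40 and a highest value of 0.29 for WDR74. The list had 0 higher at an unadjusted p under 0.05 and 0 called higher in the 6-array fit. NOP58, a core protein of snoRNA particles, read 2623 and 2712 at 1.5 h and 1203 and 1480.1 at 24 h, and fell by 1.00 ± 0.13. NOP14 and NHP2 fell by 0.80 ± 0.22 and 0.75 ± 0.14, and NPM1, the abundant nucleolar chaperone, had 0.05 ± 0.11 and did not pass. 6, 3, 3 and 1 genes fell with 1 array left out. NOP58 was called whichever array was left out. NOP14 lost the call without the siControl 1.5 h, siControl 24 h or siHNF4a 24 h array. NHP2 lost the call without the siHNF4a 24 h array.

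In the lists of liver transcription factors, plasma proteins, coagulation, lipid transport, drug metabolism, amino acid catabolism and bile acid genes more genes fell than rose, where 7.69% of all genes tested fell and 7.57% rose. Of 20 liver transcription factors, 3 fell and 0 rose, with the highest value at 0.45 for NR2F1. At an unadjusted p under 0.05, 2 were higher, where 3131 of all 11921 genes tested passed in either direction. The 6-array fit called 0 higher. CEBPA, a factor that promotes hepatocyte differentiation and restrains growth, read 601 and 740.1 at 0 h, 781 and 653 at 1.5 h and 224 and 286 at 24 h, and fell by 1.50 ± 0.17. Its signals at 24 h were below those at 0 h in both arms. RXRA, the partner of many nuclear receptors, fell by 0.78 ± 0.26, and CEBPG fell by 0.53 ± 0.19. FOXA2 and CEBPB had -0.06 ± 0.18 and -0.17 ± 0.14 and did not pass.

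Among plasma proteins, 7 of 23 fell and 2 rose. HAMP, the iron hormone hepcidin and a BMP target, read 956 and 1505 at 0 h, 1358 and 2006 at 1.5 h and 479 and 537 at 24 h, and fell by 1.70 ± 0.15. LEAP2, another liver peptide hormone, fell by 1.69 ± 0.32, from 124 and 63.3 at 1.5 h to 56.5 and 13.4 at 24 h. The 3 fibrinogen chains fell by 1.10 ± 0.14 for FGA, 0.76 ± 0.15 for FGB and 0.68 ± 0.12 for FGG. SERPINA3, an acute phase protease inhibitor, read 1539 and 2767 at 0 h, 1904 and 2627 at 1.5 h and 5339 and 7198 at 24 h, and rose by 1.47 ± 0.12. ALB and AFP had 0.05 ± 0.11 and 0.00 ± 0.11 and TF 0.09 ± 0.11, none of which passed.

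In coagulation and complement, 3 of 24 fell and 1, C3, rose, near the 7.69% and 7.57% of all genes. SERPINC1, antithrombin, fell by 0.85 ± 0.19. C3 rose by 0.35 ± 0.12 and turned to -0.03 without the siHNF4a 1.5 h array. Among apolipoproteins and lipid transport genes, 7 of 20 fell and 1 rose. MTTP, which loads lipid onto nascent lipoproteins, read 223 and 134 at 1.5 h and 75.8 and 68.4 at 24 h, and fell by 1.26 ± 0.25. FABP1, which carries fatty acids in hepatocytes, fell by 1.00 ± 0.17, with -0.20 in siControl and -1.80 in siHNF4a. PLIN2, a lipid droplet coat protein, rose by 0.95 ± 0.12. 5, 5, 6 and 2 plasma protein genes and 3, 4, 3 and 1 lipid transport genes fell with 1 array left out. CEBPA, HAMP, FGA, SERPINA3 and PLIN2 were called whichever array was left out. RXRA and CEBPG lost the call whichever of the 4 arrays was left out. LEAP2, FGG and SERPINC1 lost the call without the siHNF4a 24 h array. FGB and FABP1 lost the call without the siHNF4a 1.5 h or siHNF4a 24 h array. C3 lost the call without the siControl 24 h, siHNF4a 1.5 h or siHNF4a 24 h array. MTTP lost the call without the siControl 24 h array.

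Drug metabolism genes fell in 12 of 27 cases and rose in 1, with a median of -0.40. AKR1B10, an aldo-keto reductase, read 3139 and 1394 at 0 h, 2939.5 and 1512 at 1.5 h and 845 and 185 at 24 h, and fell by 2.41 ± 0.15, the largest fall among genes above the floor on all 4 arrays and of 1 sign in both arms. GSTA1, a glutathione transferase, read 192 and 50.3 at 1.5 h and 44.7 and 9.9 at 24 h, and fell by 2.03 ± 0.32 (floored). The alcohol dehydrogenases ADH4 and ADH6 fell by 1.75 ± 0.20 and 1.67 ± 0.20, and SULT2A1, a sulfotransferase, by 1.49 ± 0.26. CYP3A5 was the gene that rose, by 0.90 ± 0.27. Members of the AKR1C, GST and ADH families are close in sequence, and their probe sets may share signal.

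Of 16 genes of the NRF2 antioxidant programme, 11 fell, with a median of -0.50, and the highest value was -0.04 for PRDX1. AKR1B10 belongs to this list too. TXNRD1, thioredoxin reductase, read 2590.1 and 2336 at 1.5 h and 1421 and 1616 at 24 h and fell by 0.70 ± 0.13, HMOX1, haem oxygenase, fell by 0.95 ± 0.24, and NQO1 fell by 0.53 ± 0.12. SRXN1, sulfiredoxin, fell by 0.81 ± 0.16. 11, 8, 7 and 5 drug metabolism genes and 4, 2, 7 and 3 NRF2 genes fell with 1 array left out. AKR1B10, GSTA1, ADH4, ADH6 and SULT2A1 were called whichever array was left out. CYP3A5 and HMOX1 lost the call without the siControl 1.5 h, siControl 24 h or siHNF4a 24 h array. TXNRD1 lost the call without the siControl 24 h array. NQO1 lost the call without the siHNF4a 24 h array. SRXN1 lost the call without the siControl 1.5 h or siControl 24 h array.

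Amino acid catabolism gave 6 falls and 1 rise among 26 genes, where 7.69% of all genes tested fell and 7.57% rose. DDC, the decarboxylase of aromatic amino acids, read 643 and 345 at 0 h, 623 and 329 at 1.5 h and 157 and 53.9 at 24 h, and fell by 2.30 ± 0.21. PRODH2, hydroxyproline dehydrogenase, fell by 1.77 ± 0.27, and MAT1A, which makes S-adenosylmethionine in liver, fell by 1.40 ± 0.32. NAGS, which makes the activator of the urea cycle, rose by 1.44 ± 0.33, with 0.54 in siControl and 2.33 in siHNF4a. CPS1, the first enzyme of that cycle, had 0.01 ± 0.25 and did not pass.

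Lipid genes were mixed. Fatty acid synthesis had 5 falls and 1 rise among 17, where 7.69% of all genes tested fell and 7.57% rose. MLXIPL, the glucose-sensing factor ChREBP, was down by 1.39 ± 0.37 (floored) and DGAT1 by 1.13 ± 0.23. Fatty acid oxidation had 5 falls among 24 and no rise by limma, the highest value being 0.30 for ACADVL, with 1 higher at an unadjusted p under 0.05 and 0 called higher in the 6-array fit. ACOX2, a peroxisomal oxidase, read 457 and 297 at 1.5 h and 209 and 125 at 24 h, and fell by 1.19 ± 0.20. Cholesterol synthesis had 2 rises and 2 falls among 21, near the shares over all genes. Of 13 bile acid genes 3 fell, the transporters ABCG2 and ABCC2 by 1.17 ± 0.26 and 0.81 ± 0.17 and the enzyme CYP27A1 by 0.50 ± 0.17. 2, 2, 6 and 3 amino acid genes, 0, 0, 4 and 0 fatty acid synthesis genes and 5, 3, 3 and 1 oxidation genes fell with 1 array left out. DDC, PRODH2 and ACOX2 were called whichever array was left out. MAT1A and ABCC2 lost the call without the siControl 1.5 h or siControl 24 h array. NAGS lost the call without the siHNF4a 1.5 h or siHNF4a 24 h array. MLXIPL and DGAT1 lost the call without the siControl 1.5 h, siControl 24 h or siHNF4a 24 h array. ABCG2 lost the call without the siControl 24 h or siHNF4a 24 h array. CYP27A1 lost the call whichever of the 4 arrays was left out.

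Genes of glycolysis and the hypoxia response rose in 15 of 35 cases and fell in 1, with a median of 0.41. The glucose transporters SLC2A3 and SLC2A1 rose by 0.91 ± 0.12 and 0.73 ± 0.12. NDRG1, a stress gene induced in low oxygen, read 230.0 and 205 at 1.5 h and 478 and 732 at 24 h, and rose by 1.45 ± 0.18. BNIP3L, a mitophagy receptor, rose by 1.00 ± 0.16. The central enzymes LDHA, PGK1 and ENO1 were bright and had 0.06 ± 0.11, 0.11 ± 0.12 and -0.04 ± 0.11, which did not pass. HK1, hexokinase, rose by 2.16 ± 0.34 (floored), from 3.2 and 22 at 1.5 h to 51 and 111 at 24 h, with 1 signal under the floor. 8, 6, 8 and 3 genes rose with 1 array left out. SLC2A3, BNIP3L and HK1 were called whichever array was left out. SLC2A1 and NDRG1 lost the call without the siHNF4a 24 h array.

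Interferon-response genes gave 7 rises among 24 and no fall by limma, the lowest value being -0.64 for IFIH1, with 0 lower at an unadjusted p under 0.05 and 0 called lower in the 6-array fit. IFITM1, an antiviral membrane protein, read 100.4 and 48.5 at 1.5 h and 251 and 114 at 24 h, and rose by 1.28 ± 0.26, and RIGI, an RNA sensor, rose by 1.16 ± 0.25. IFIT1, MX1 and ISG15, common markers of interferon, had -0.55 ± 0.35, -0.16 ± 0.37 and -0.01 ± 0.20 and did not pass. 5, 1, 3 and 0 of these genes rose with 1 array left out. IFITM1 and RIGI lost the call without the siControl 24 h or siHNF4a 24 h array.

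Stress genes of the endoplasmic reticulum gave 6 falls and 2 rises among 32, where 7.69% of all genes tested fell and 7.57% rose. The metallothionein and Wnt counts below stand beside the same shares and rest on few genes. CRELD2, a chaperone-like protein, read 649 and 698 at 1.5 h and 280.0 and 264 at 24 h, and fell by 1.31 ± 0.17, while HSPA5, the main chaperone, had -0.13 ± 0.11 and did not pass. Of 14 metallothionein and iron genes 3 rose, all of them metallothioneins, with MT1H up by 0.93 ± 0.12, and 2 fell, HAMP and HMOX1, given above. Metallothionein genes are near copies of one another and their probe sets may share signal. Of 16 Wnt targets 3 rose, MYC among them, with LGR5 up by 0.61 ± 0.15 and DKK1 by 0.43 ± 0.12, and AXIN2, a common marker of the pathway, at 0.17 ± 0.14. CRELD2 was called whichever array was left out. MT1H lost the call without the siHNF4a 24 h array. LGR5 and DKK1 lost the call without the siHNF4a 1.5 h or siHNF4a 24 h array.

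The respiratory chain served as a comparison, with 1 rise and 1 fall among 26 subunits and a median of -0.003. None of 10 housekeeping controls was called by limma, and their differences ran from -0.35 for HPRT1 to 0.27 for YWHAZ. At an unadjusted p under 0.05, 1 was higher and 1 lower, where 3131 of all 11921 genes tested passed in either direction. GAPDH had 0.01 ± 0.11.

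Some of the genes with the largest late differences belong to none of the lists. TNS1, tensin, which ties integrins to actin, read 15.3 and 28 at 0 h, 14.7 and 24.1 at 1.5 h and 88.4 and 155 at 24 h, and rose by 2.64 ± 0.32. TGFB1I1, a focal adhesion adaptor induced by TGF-beta, rose by 2.10 ± 0.25, and TGM2, a transglutaminase that crosslinks matrix proteins, rose by 2.14 ± 0.21. TMSB4X, thymosin, which binds free actin, read 162 and 282 at 1.5 h and 699.7 and 1376 at 24 h, and rose by 2.20 ± 0.17. S100A3, a calcium-binding protein, and CLTB, a clathrin light chain, rose by 2.58 ± 0.21 and 2.49 ± 0.16, with CLTB at 265 and 263 at 1.5 h and 1256 and 1749 at 24 h.

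LEFTY1, a secreted inhibitor of Nodal, rose by 2.02 ± 0.34, from 23.5 and 14.5 at 1.5 h to 61.3 and 92.1 at 24 h. Genes best known from blood cells were also among them: CD3D, a chain of the T cell receptor complex, read 28.6 and 59.2 at 1.5 h and 107 and 483 at 24 h, and rose by 2.46 ± 0.27, LAPTM5, a lysosomal protein of white cells, rose by 2.38 ± 0.26, and TUBB1, a platelet tubulin, rose by 2.11 ± 0.22. Over the same arrays PTPRC, which marks white cells, read 10.0 and 6.5 at 1.5 h and 1.1 and 5.6 at 24 h, all under the floor. CD3E, the partner of CD3D, read 11.4 and 7.3 at 1.5 h and 12.8 and 18.5 at 24 h. The blood markers CD14 and HBB were higher at 24 h in both arms but did not pass. CD14 read 33.8 and 21.9 at 1.5 h and 100.3 and 25.3 at 24 h. HBB read 3.6 and 4.9 at 1.5 h and 19.8 and 28.8 at 24 h. The part of blood cells in these rises was not tested. PDLIM4, a scaffold of actin stress fibres, rose by 2.25 ± 0.31, but 1 of its 2 other probe sets went the other way.

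Among genes that fell, CPN2, a subunit of the plasma enzyme carboxypeptidase N, read 241 and 99.7 at 1.5 h and 65.7 and 19.6 at 24 h, and fell by 2.11 ± 0.29. ZNF367, a zinc finger protein, fell by 2.10 ± 0.31, and XYLB, xylulose kinase, fell by 1.86 ± 0.34. TNS1, TGFB1I1, TGM2, TMSB4X, S100A3, CLTB, CD3D, LAPTM5, TUBB1, CPN2, ZNF367 and XYLB were called whichever array was left out. LEFTY1 and PDLIM4 lost the call without the siHNF4a 24 h array.

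The 2 arms differed in their late difference by at least 2-fold for 888 of 11921 genes (7.45%), 554 with the higher value in siHNF4a and 334 with the higher value in siControl. This gap has no repeat within an arm, so no test was possible and the values below are single observations chosen for their size. The count depends on the floor: it was 1572 with the floor at the 40th percentile, 486 at the 60th and 128 at the 75th.

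TXNIP, an inhibitor of thioredoxin that responds to glucose, was the brightest of the 12 genes listed for this gap. It read 640.1 and 1054 at 0 h, 489.9 and 734 at 1.5 h and 515 and 167 at 24 h. The late difference was 0.07 in siControl and -2.14 in siHNF4a, a gap of -2.21. Its 2 other probe sets gave the same sign as its mean of -1.03 ± 0.17. ARRDC4, a related arrestin under the same glucose sensor, read 89.7 and 147 at 1.5 h and 52.5 and 21.3 at 24 h, and fell by 1.78 ± 0.30, with -0.77 in siControl and -2.79 in siHNF4a. Without the siHNF4a 24 h array the TXNIP difference was 0.11.

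ST3GAL3, a sialyltransferase, had the lowest gap, -3.52, with 38.6 and 79.2 at 1.5 h and 75.8 and 13.6 at 24 h. HLA-F-AS1, a non-coding transcript antisense to HLA-F, had -2.64, NALT1 -2.31, PLEKHG2 -2.22 and ZNF554 -2.18. In ST3GAL3, HLA-F-AS1, NALT1, PLEKHG2 and ZNF554 the late difference was above 0 in siControl and below 0 in siHNF4a. HLA-F-AS1 fell by 0.91 ± 0.32 over both arms, and without the siHNF4a 24 h array its difference was 0.27.

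At the other end, MAF, a leucine zipper transcription factor, had a gap of 2.86, with 57.4 and 14.1 at 1.5 h and 21 and 37.4 at 24 h, and EEF1A2, an elongation factor, 2.77. FOS had 2.52, with -0.57 in siControl and 1.95 in siHNF4a. MMP2, MFAP2, a microfibril protein, and ANO7 had gaps of 2.48, 2.37 and 2.44, with siControl differences of 0.25, 0.25 and 0.01. Most of these genes were dim: 1.5 h signals of the 6 genes with the higher value in siHNF4a ran from 14.1 for MAF to 69.2 for ANO7, against a floor of 12.9. ARRDC4, MMP2 and MFAP2 lost the call without the siHNF4a 1.5 h or siHNF4a 24 h array. TXNIP, HLA-F-AS1 and EEF1A2 lost the call without the siControl 1.5 h, siHNF4a 1.5 h or siHNF4a 24 h array. ANO7 lost the call without the siControl 24 h, siHNF4a 1.5 h or siHNF4a 24 h array.

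Where a called gene had other probe sets above the floor, 1568 of 1752 of them (89.5%) had a late difference of the same sign.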

How the data were processed

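The authors' deposited table holds MAS5 signal intensities of 54675 probe sets on 6 arrays, in MAS5 5.0 with GCOS per the submitters' processing notes, each array scaled to a trimmed mean of 100. Each combination of siRNA and time has 1 array, so the number of arrays limits precision. Probe sets with 1 symbol in the platform annotation (41097, with 1801 of several symbols and 11777 of none left out) gave 19775 genes, each by its brightest probe set. Signals were floored at 12.9, the median of all signals, and taken to log2, and 11921 genes with a mean signal over the floor were tested. The 24 h against 1.5 h difference with a term for siRNA was fitted in limma 3.58.1 (R 4.3.3, eBayes with trend, Benjamini-Hochberg adjusted p under 0.05) and the script was tested on simulated data. A gene rose or fell where it passed that threshold, and "floored" marks a called gene with a signal under the floor, whose size depends on the floor. Fits without 1 array used the other 5 arrays with terms for siRNA and time, which assumes that a lone array varies like the others. Alternatives were other scalings, floors, a pseudocount, probe set rules, filters and fits.

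The members and gene lists were chosen with earlier results of these data known. Names came from a rule. It took the 20 highest and 20 lowest differences of genes over the floor on all 4 arrays with 1 sign in both arms. It added up to 6 called genes each way with an array at the floor and up to 4 called members of each list. A further 15 were genes that an earlier analysis had called at 1.5 h against 0 h, with SKIL, ID1 and MIXL1 added to them. The last were the 6 highest and 6 lowest gaps between arms. Other names are list members chosen after their values were seen. HNF4A is not reported here. Promoter sequences are those of RefSeq for GRCh38.p14. Figures were drawn with Python 3.11.15 and matplotlib 3.10.9.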

Additional observations from a re-analysis of the deposited data

Results flagged for a closer look

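For 8 of the 12 genes with the most extreme gaps between arms, the late difference had opposite signs in the 2 arms, which was not tested because each arm is 1 pair of arrays. The gap, siHNF4a minus siControl on the log2 scale, was above 0 for MAF (2.86) and FOS (2.52). It was below 0 for ST3GAL3 (-3.52), HLA-F-AS1 (-2.64), NALT1 (-2.31), PLEKHG2 (-2.22), TXNIP (-2.21) and ZNF554 (-2.18). The siControl late difference of TXNIP was 0.07, so its opposite sign rests on a value near 0. Its 2 other probe sets were slightly lower at 24 h in siControl, from 287.3 to 282.1 and from 246.3 to 238.2. They thus had 1 sign in both arms. HLA-F-AS1 and TXNIP were the called genes among them.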

How the results depend on the processing

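Genes that rose and fell numbered 902 and 917. Quantile normalization gave 826 and 858, median scaling 848 and 854, a pseudocount 915 and 927, a floor at the 40th, 60th or 75th percentile 711 and 696, 898 and 919, and 749 and 843, and genes above the floor on all 4 arrays, chosen after seeing the data, 871 and 917. Averaging a gene's probe sets gave 347 and 342, leaving out probe sets that can match several transcripts (_x_at, _s_at) 608 and 562, limma without the trend 115 and 80, and limma without the term for siRNA 18 and 8. Testing all 19775 genes gave 0 and 0, with 1921 at an unadjusted p under 0.05. Without 1 array the counts were 134 to 501 and 118 to 480.

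Genes at least 2-fold apart in both arms numbered 189 and 121, against 90 and 57 under the floor of the 75th percentile, while the pseudocount gave 75 lower. The gap of at least 2-fold between arms, 888 genes, became 1572, 486 and 128 under those 3 floors, 486 with the pseudocount and 485 with averaged probe sets, all chosen after seeing the data. The cause of these shifts was not tested.

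Of 184 named genes 176 were called. Calls kept were 170 under quantile normalization, 172 under median scaling, 161, 169 and 128 under the 3 floors, 173 with the pseudocount, 111 with averaged probe sets, 162 with all 6 arrays, 72 without the trend, 16 without the siRNA term, 0 with all genes tested, 104 of 114 without probe sets of several transcripts and 130, 122, 125 and 81 without 1 array. Without the probe sets of several transcripts DUSP8 turned to 0.59 and PDLIM4 to -0.0053. Without 1 array C3 ranged from -0.029 to 0.72, HLA-F-AS1 from -2.09 to 0.27 and TXNIP from -2.17 to 0.11. Signals near the floor of 12.9 limit the size of any difference.

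The labels carry no replicate numbers, and the fit pairs the arrays by siRNA.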
